A study of Mus musculus with 6 samples.

Results

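The transcripts described here are those of the EGF receptor family and its ligands in mouse cornea. They comprise 3 receptors (Egfr, Erbb2 and Erbb3) and 7 ligands (Hbegf, Areg, Ereg, Tgfa, Epgn, Btc and Egf), found by exact match of the gene symbol. All 10 were in the table of 35673 symbols, and all 10 passed the low-count filter that left 18804 genes for testing. RNA was sequenced from 3 Cationorm and 3 Control libraries of corneal tissue. Cationorm is an eye drop made of positively charged oil droplets in water. Donor mice were male, of the C57BL/6J strain and 6 to 8 weeks old. In the protocol shared by all labels, dry eye was brought on by 0.1% benzalkonium chloride (an irritant preservative, 5 µL per eye) together with 6 h of lens wear per day, before 14 days of treatment drops. Every library, Control included, carries the same model tag and the word wild-type as its treatment, so whether the Control mice were untreated or had the model cannot be told from the labels, and the comparison is given by the titles alone. Whether each library is 1 animal, a pool or a repeat is not stated, so a p-value here reflects variation among libraries that may be technical.

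Receptors of this family are tyrosine kinases that act in pairs. Egfr binds all 7 ligands listed here, Erbb2 binds no ligand and serves as a partner, and Erbb3 has little kinase activity of its own and signals through its partner when neuregulins bind. The ligands are made as membrane-anchored precursors that proteases release from the cell surface. In corneal epithelium this pathway is known for driving cell migration and proliferation after injury, with Hbegf among the ligands released at wounds.

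Depth ran from 32486043 to 38542164 counts in the Cationorm libraries and from 34589433 to 39193311 counts in the Control libraries. Markers of corneal epithelium were present in every library, with 10 of 10 detected and a summed level of 58546 to 63335 CPM (counts scaled to library size, with TMM normalisation) in Cationorm and 56637 to 60679 CPM in Control. Control 3 stood closer to Cationorm 3 than to its own group, with a chi-square per degree of freedom of 16.2 against Cationorm 3, 22.0 against Cationorm 2, 30.6 against Control 1 and 36.6 against Control 2. On that measure, each Cationorm library was also nearer to Control 3 than to its own group. Cationorm 1 was at 58.3 from Control 3, and at 64.7 from Cationorm 2 and 72.1 from Cationorm 3. Cationorm 2 and Cationorm 3 were at 33.2 from each other. By Pearson correlation of log2 CPM, Cationorm 1 was instead slightly nearer to Cationorm 2 (0.9860) than to Control 3 (0.9852). Cationorm 2 and Cationorm 3 again correlated best with Control 3 (0.9897 and 0.9939). Markers of neighbouring eye tissues were also present. The 9 markers of iris, ciliary body and pigment cells, all detected, summed to 1487, 1212 and 1176 CPM in Cationorm 1 to 3, against 494, 428 and 1054 CPM in Control 1 to 3. The 9 retina markers, all detected, summed to 2949, 2397 and 6675 CPM in Cationorm 1 to 3, against 7947, 6966 and 5483 CPM in Control 1 to 3, with a median log2 fold change of -0.84. The 7 lens markers matched summed to 1569, 3432 and 5532 CPM in Cationorm 1 to 3, against 71.3, 2830 and 2426 CPM in Control 1 to 3. The 7 keratocyte and stroma markers summed to 1744 to 2655 CPM in Cationorm and 2176 to 2529 CPM in Control. Their median log2 fold change was -0.17, with 5 genes negative and 2 positive. The most negative were Kera at -0.83 ± 0.28 and Lum at -0.66 ± 0.27 (SE, n = 3 each, edgeR adjusted p = 0.550 for both). The positive ones were Col1a1 at 0.11 and Aldh1a1 at 0.06. Among the iris and pigment markers, 9 of 9 had a positive log2 fold change, with a median of 0.94. Of these 9, 8 were higher in Cationorm at an unadjusted p under 0.05 (edgeR), against 5.16% of all genes. The groups did not overlap in 6 of the 9, against 14.8% of all genes. No marker gene of these 4 lists was called by edgeR, but it called 0 of all 18804 genes tested, so this does not show equal levels. In bulk tissue, fewer cells of a type and less RNA per cell cannot be told apart.

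None of the 10 members differed between the groups by the test over all genes. The quasi-likelihood test of edgeR with Benjamini-Hochberg adjustment called 0 of 10 members, against 0% of the 18804 genes tested, and DESeq2 called 0 members, against 0.381% of the 14426 genes to which it gave an adjusted p. The smallest adjusted p over all genes in edgeR was 0.550. Many genes of unlike unadjusted p are tied at that value, so it does not rank them. At an unadjusted p under 0.05 there were 2 members by either tool, Hbegf and Erbb3, both higher in Cationorm, against 8.73% of all genes at that p in edgeR (5.16% higher and 3.57% lower). The groups did not overlap in 2 members, which were the same genes, against 14.8% of all genes (8.73% higher and 6.09% lower in Cationorm). Of the 10 members, 7 had a positive log2 fold change (Cationorm over Control), against 51.2% of all genes, and their median was 0.11, against 0.01 over all genes tested.

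**Figure D1:**
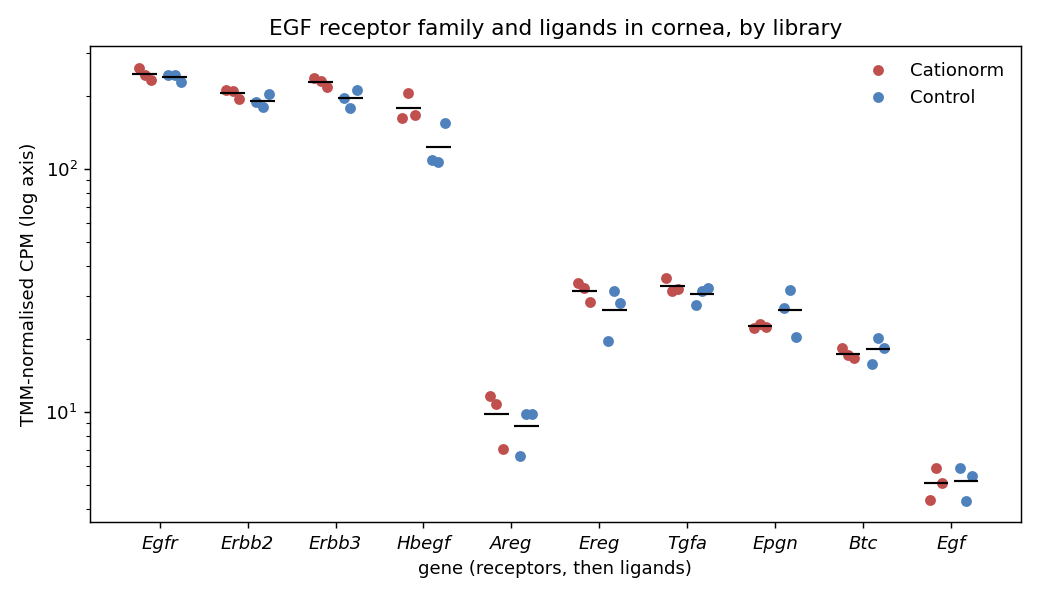
TMM-normalised CPM (log axis) of the 3 receptors and 7 ligands, with 1 point per library (3 Cationorm and 3 Control) and a black line at the mean of each group. The points of the groups separate in Erbb3 and Hbegf and overlap in the other 8 genes.

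Egfr, the receptor shared by the ligands, had 262, 244 and 234 CPM in Cationorm 1 to 3, against 245, 244 and 228 CPM in Control 1 to 3. The groups overlapped, with Cationorm 1 the highest library and Control 3 the lowest. Its log2 fold change was 0.05 ± 0.07 (SE, n = 3 each), with a 95% interval of -0.11 to 0.20 and an adjusted p of 0.815 (edgeR). As a ratio, that interval ran from 0.925-fold to 1.15-fold. The log2 value was 0.00089 without Cationorm 1, 0.01 without Control 3 and 0.08 without Cationorm 3.

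Erbb2, the partner receptor, had 212, 210 and 194 CPM in Cationorm 1 to 3, against 189, 181 and 203 CPM in Control 1 to 3. The groups overlapped because Control 3 lay above Cationorm 3. Its log2 fold change was 0.10 ± 0.07 (SE, n = 3 each), with a 95% interval of -0.06 to 0.27 and an adjusted p of 0.606 (edgeR). Without Control 2 it was 0.05.

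Erbb3, the neuregulin receptor, had 238, 231 and 218 CPM in Cationorm 1 to 3, against 196, 178 and 211 CPM in Control 1 to 3. All Cationorm libraries lay above all Control libraries, and Control 3 came nearest to them. The mean was 229 ± 9.93 CPM in Cationorm and 195 ± 16.5 CPM in Control (SD, n = 3 each). On the log2 scale the change was 0.23 ± 0.08 (SE), with a 95% interval of 0.04 to 0.41, an unadjusted p of 0.0218 and an adjusted p of 0.550 (edgeR), so the difference did not pass the test. Leaving out 1 library at a time gave 0.15 (without Control 2) to 0.29, and the unadjusted p was above 0.05 without Cationorm 1 (0.0761), Cationorm 2 (0.0589), Control 1 (0.0519) or Control 2 (0.0512).

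Levels of different genes were compared per length of annotated exon (CPM per kb). On that scale Erbb2 was the highest receptor, at 39.4 ± 1.94 CPM per kb in Cationorm and 36.7 ± 2.20 in Control, followed by Erbb3 at 38.1 ± 1.65 in Cationorm and 32.5 ± 2.74 in Control. Erbb2 exceeded Erbb3 in 6 of 6 libraries, although the ranges of these neighbours over the libraries overlapped. Egfr was lower, at 21.8 ± 1.25 CPM per kb in Cationorm and 21.1 ± 0.853 in Control, a range that did not meet that of either other receptor. As a share of the summed receptor level per length, Erbb3 made up 38.2%, 38.2% and 38.5% in Cationorm 1 to 3, against 36.0%, 34.5% and 37.3% in Control 1 to 3. The Egfr share was 21.9 ± 0.419% in Cationorm and 23.4 ± 1.92% in Control, and the Erbb2 share was 39.7 ± 0.451% in Cationorm and 40.6 ± 0.678% in Control (SD, n = 3 each, no test).

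Hbegf, the heparin-binding ligand, was the most abundant ligand and the member with the largest log2 fold change. It had 163, 206 and 168 CPM in Cationorm 1 to 3, against 109, 107 and 154 CPM in Control 1 to 3. All Cationorm libraries lay above all Control libraries, but Control 3 was nearer to Cationorm 1 than to either other Control library. The mean was 179 ± 23.5 CPM in Cationorm and 123 ± 27.0 CPM in Control (SD, n = 3 each). Cationorm over Control, the log2 fold change was 0.54 ± 0.16 (SE), or 1.45-fold with a 95% interval of 1.11 to 1.89. The unadjusted p was 0.0127 and the adjusted p 0.550 (edgeR), and the p was the 300th smallest of the genes tested. Leaving out 1 library at a time gave log2 fold changes of 0.41 (without Cationorm 2) to 0.73 (without Control 3), with adjusted p of 0.120 to 0.862. The unadjusted p was above 0.05 without Cationorm 2 (0.0509) or Control 2 (0.0502).

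Levels of other tissues' markers are set beside Hbegf by library. Within Control, Hbegf was highest in Control 3, where the summed level of the iris and pigment markers was also highest and that of the retina markers lowest. Within Cationorm, Hbegf was highest in Cationorm 2, where the retina sum was again lowest, the iris and pigment sum and the lens sum were each between those of the other Cationorm libraries, and the 8 skeletal muscle markers (Tnnc2 under 0.1 CPM on average) reached their highest sum of all libraries. That muscle sum was 43.9, 1352 and 542 CPM in Cationorm 1 to 3, against 453, 67.7 and 810 CPM in Control 1 to 3. Within each group it followed the same order of libraries as Hbegf, with Control 3 the highest Control library. Across the groups it did not, as Control 3 lay above Cationorm 1 and Cationorm 3. Erbb3 and the iris and pigment sum shared their highest Cationorm library (Cationorm 1) and their highest Control library (Control 3). The part of these tissues in the result was not tested.

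Egr1, an immediate early transcription factor induced through ERK, was named after its values were seen because it too set Control 3 apart. It had 71.9, 93.9 and 41.0 CPM in Cationorm 1 to 3, against 8.13, 16.1 and 96.6 CPM in Control 1 to 3. Its groups overlapped widely, with the highest value of all in Control 3, and its adjusted p was 0.742 (edgeR). Among the other ERK target genes listed below, Control 3 was the highest Control library in Fos, Ier2, Ier3 and Dusp5. It was not in Junb, Zfp36, Klf10, Ccnd1, Etv4, Etv5, Myc, Phlda1, Plaur or Fosl1, so the pattern of Egr1 does not stand for the list.

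**Figure D2:**
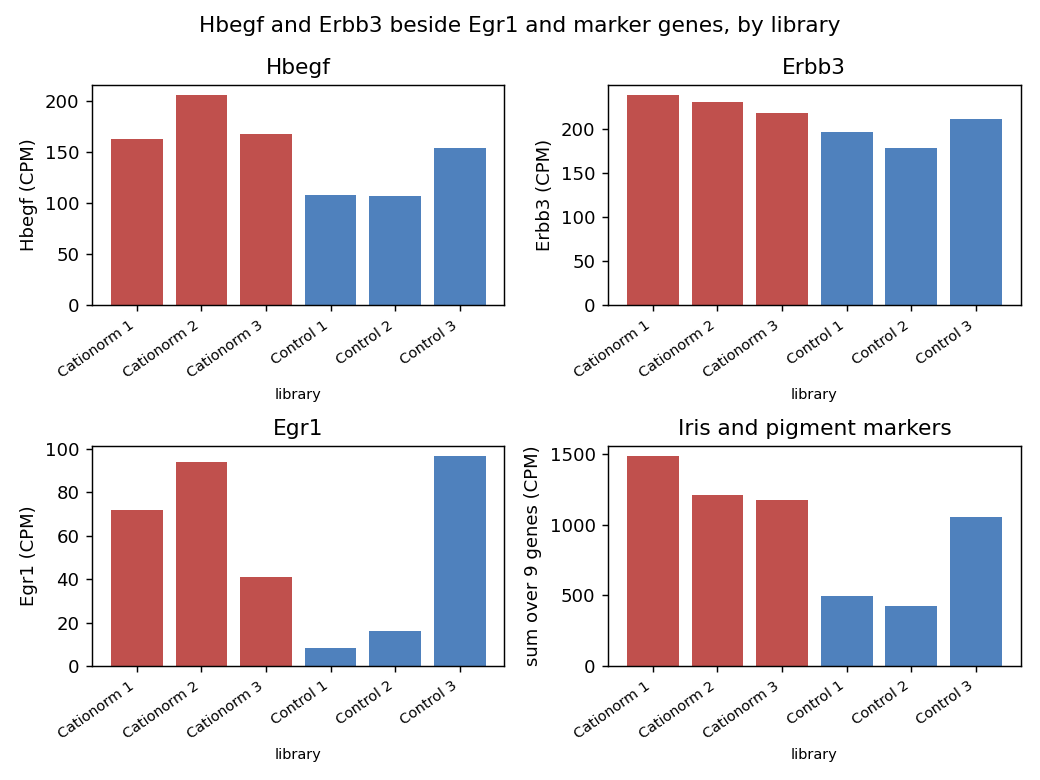
Levels in CPM by library of Hbegf, Erbb3, Egr1 and the sum over 9 iris and pigment marker genes, each panel with its own axis from 0, with the 3 Cationorm libraries left of the 3 Control libraries. Control 3 is the highest Control library in each panel, and in Egr1 it is the highest of all 6. Egr1 was chosen for this pattern after its values were seen, and most other ERK target genes listed did not share it.

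The genes Epgn, Ereg, Areg and Btc lie next to each other in that order on mouse chromosome 5 (RefSeq, GRCm38.p6). None of the 4 was called, and Areg and Ereg had positive log2 fold changes where Epgn and Btc had negative ones. To show upstream sequence of this cluster, the 250 bases before the annotated start are given for Areg and Epgn, which follow each other in the order of levels per length and whose ranges on that scale did not overlap, both on the plus strand, from RefSeq on GRCm38.p6 (chr5:91139349-91139598 for Areg and chr5:91027267-91027516 for Epgn). Capitals mark matches, on either strand, to TATAAA (the TATA box letters), GGGCGG (a GC box), TGACGTCA (the cAMP response element) and TGANTCA (the AP-1 letters), which do not overlap each other here.
Areg: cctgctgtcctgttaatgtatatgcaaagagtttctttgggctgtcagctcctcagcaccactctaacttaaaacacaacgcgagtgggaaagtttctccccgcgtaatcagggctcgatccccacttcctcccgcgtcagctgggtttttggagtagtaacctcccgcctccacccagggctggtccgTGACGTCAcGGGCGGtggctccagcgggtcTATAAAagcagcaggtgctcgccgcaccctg
Epgn: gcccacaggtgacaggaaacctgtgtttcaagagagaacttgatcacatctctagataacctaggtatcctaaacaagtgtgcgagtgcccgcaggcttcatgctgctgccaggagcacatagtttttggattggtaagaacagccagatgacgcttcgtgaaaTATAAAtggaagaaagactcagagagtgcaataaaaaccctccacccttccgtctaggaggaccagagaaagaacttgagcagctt

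The Areg window held TGACGTCA, GGGCGG and TATAAA, whose first bases lie at -61, -52 and -31 from the start. The Epgn window held TATAAA at -86 and no other of these letters. Among 32851 windows of the same length, 12.4% held TATAAA, 32.7% GGGCGG, 1.55% TGACGTCA and 6.75% TGANTCA. A match is a description of letters and not a site. The G and C content was 57.2% for Areg and 46.8% for Epgn, against a median of 52.4% over all windows. Windows were in the table for 7 of 10 members, and those of Tgfa (69.2%), Erbb2 (66.0%), Egfr (60.8%) and Btc (59.6%) were richer in G and C than that median.

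Areg (amphiregulin) was among the ligands with fewer counts, 263 to 407 per library. It had 11.7, 10.8 and 7.07 CPM in Cationorm 1 to 3, against 6.58, 9.87 and 9.83 CPM in Control 1 to 3. Cationorm 3 lay between Control 1 and the other two Control libraries, so the groups overlapped. Fitted over the groups, the log2 fold change was 0.17 ± 0.24 (SE, n = 3 each), with a 95% interval of -0.40 to 0.74 and an adjusted p of 0.807 (edgeR). As a ratio, the interval spans 0.760-fold to 1.67-fold. The value rests on single libraries: it was 0.0021 without Control 1, 0.03 without Cationorm 1 and 0.08 without Cationorm 2, and 0.36 without Cationorm 3.

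Ereg (epiregulin) had 34.0, 32.4 and 28.5 CPM in Cationorm 1 to 3, against 19.7, 31.6 and 28.1 CPM in Control 1 to 3. Control 1 stood below the other libraries, as it did for Areg, and the groups overlapped. Its log2 fold change was 0.26 ± 0.17 (SE, n = 3 each), with an adjusted p of 0.603 (edgeR), and it was 0.08 without Control 1.

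Epgn (epigen) was the member with the largest negative log2 fold change. It had 22.1, 23.1 and 22.3 CPM in Cationorm 1 to 3, against 26.8, 31.9 and 20.4 CPM in Control 1 to 3. The Cationorm libraries had a coefficient of variation of 2.32%, against 21.7% in the Control libraries, with Control 3 below all others. Counting error alone was 3.79% at the lowest count (697, in Cationorm 1), so the 2.32% does not measure the spread between libraries. On the log2 scale the change was -0.23 ± 0.15 (SE, n = 3 each), with a 95% interval of -0.59 to 0.14 and an adjusted p of 0.607 (edgeR). Without Control 3 it was -0.38, and without Control 2 -0.09.

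Btc (betacellulin), which also binds Erbb4, had 18.4, 17.1 and 16.7 CPM in Cationorm 1 to 3, against 15.7, 20.3 and 18.4 CPM in Control 1 to 3. The Cationorm values lay inside the Control range. Cationorm over Control, the log2 fold change was -0.06 ± 0.12 (SE, n = 3 each), with a 95% interval of -0.33 to 0.21 and an adjusted p of 0.868 (edgeR).

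Tgfa, which encodes transforming growth factor alpha, had 35.7, 31.6 and 32.02 CPM in Cationorm 1 to 3, against 27.7, 31.4 and 32.4 CPM in Control 1 to 3. Control 1 was the lowest library, as it was for Areg and Ereg, and the groups overlapped. Fitted over the groups, the log2 fold change was 0.12 ± 0.09 (SE, n = 3 each), with a 95% interval of -0.10 to 0.33 and an adjusted p of 0.643 (edgeR). It was 0.05 without Control 1 and 0.06 without Cationorm 1.

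Egf, the founding ligand, which reaches the ocular surface mainly in tears from the lacrimal gland, was the least abundant member, with 137 to 236 counts per library. It had 4.35, 5.92 and 5.13 CPM in Cationorm 1 to 3, against 5.90, 4.33 and 5.44 CPM in Control 1 to 3. The groups overlapped almost fully. Its log2 fold change was -0.02 ± 0.19 (SE, n = 3 each), with a 95% interval of -0.48 to 0.43 and an adjusted p of 0.973 (edgeR). The counting error alone was 8.54% at the lowest count, against a coefficient of variation between libraries of 15.3% in Cationorm and 15.5% in Control. Of the annotated Egf exon bases, 9.82% are shared with exons of other genes, and as the strand setting of the counting is not given, part of these counts may belong to those genes. The same share was 3.42% for Ereg, 1.82% for Tgfa and 0.173% for Erbb2, and 0 for the other members.

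**Figure D3:**
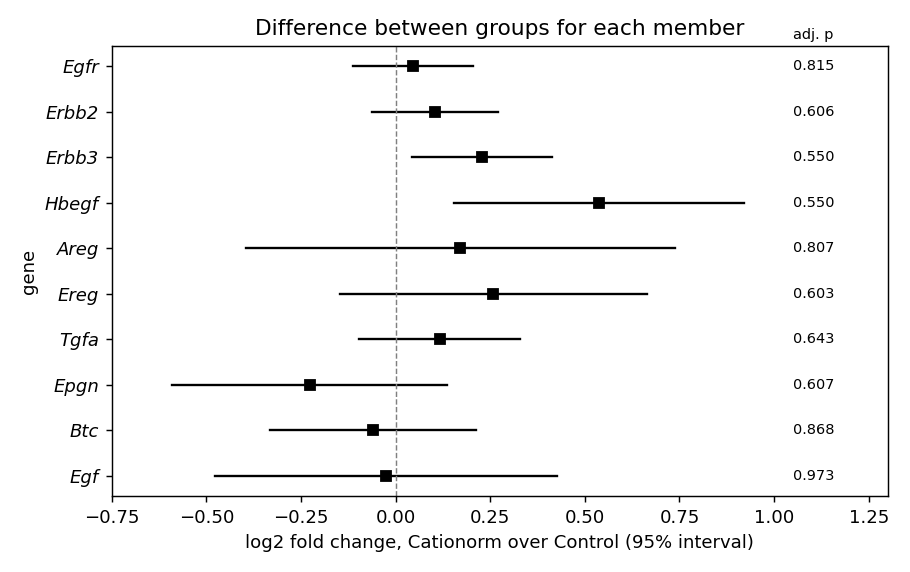
Log2 fold change of Cationorm over Control (squares) with its 95% interval (lines) for each of the 10 members, with the adjusted p of the edgeR test at the right. The intervals of Erbb3 and Hbegf lie above 0, those of the other 8 genes include 0, and the smallest adjusted p is 0.550.

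Per length, the order over all 6 libraries was Erbb2, Erbb3, Hbegf, Egfr, Epgn, Areg, Ereg, Tgfa, Btc and Egf, by median. Ranges over the libraries did not meet between Egfr and Epgn, between Epgn and Areg, or between Btc and Egf, and each other pair of neighbours overlapped. Hbegf spanned 22.1 to 42.6 CPM per kb over the 6 libraries, a range that takes in both Erbb2 and Erbb3. Its place depends on the length used: with the longest annotated coding transcript (2375 bases in place of 4834, an alternative chosen after seeing the data) Hbegf came first, at a median of 66.8 CPM per kb, and the other 9 genes kept their order.

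Hbegf made up 45.7%, 52.4% and 50.4% of the summed ligand level per length in Cationorm 1 to 3, against 40.3%, 33.9% and 47.2% in Control 1 to 3. Cationorm 1 lay below Control 3, so the shares overlapped. Epgn was next, at 16.8 ± 1.12% in Cationorm and 23.4 ± 5.84% in Control (SD, n = 3 each). Areg made up 10.8 ± 2.31% in Cationorm and 11.4 ± 1.46% in Control, and Ereg 10.3 ± 0.792% in Cationorm and 10.1 ± 1.59% in Control. Egf contributed at most 0.661% in a Cationorm library and 0.939% in a Control library. The summed level of all 7 ligands was 74.7 ± 6.27 CPM per kb in Cationorm and 62.9 ± 6.30 in Control. Without Hbegf that sum was 37.6 ± 3.09 in Cationorm and 37.4 ± 5.11 in Control. These shares and sums depend on the length used and were computed on annotated exon only. With the longest coding transcript the median rose from 32.8 to 66.8 CPM per kb for Hbegf and from 0.469 to 1.11 for Egf.

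**Figure D4:**
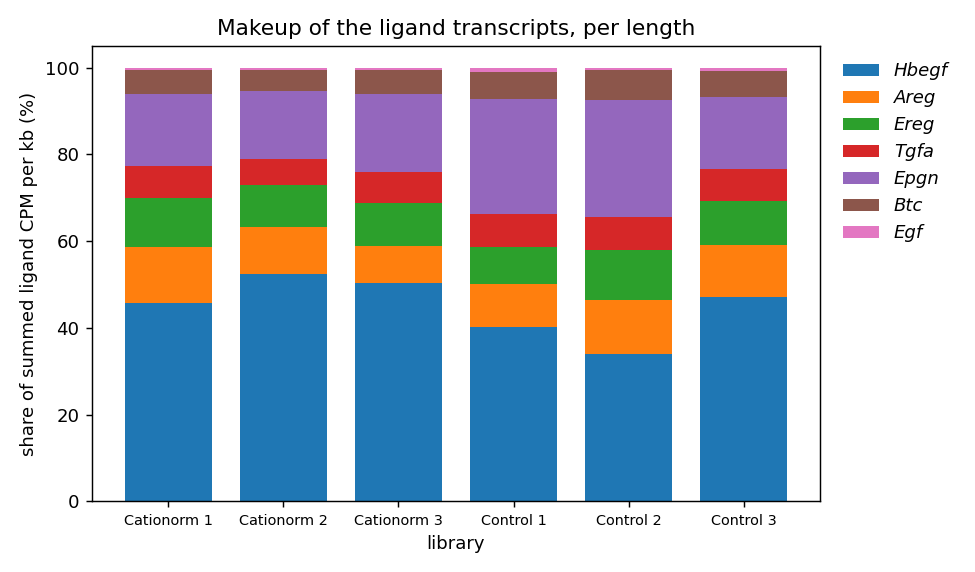
Share (%) of each of the 7 ligands in the summed ligand level per length (CPM per kb of annotated exon), as 1 stacked bar per library with the 3 Cationorm libraries left of the 3 Control libraries. Hbegf is the largest part of every bar, from 33.9% in Control 2 to 52.4% in Cationorm 2.

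Among family members and ligands outside the list of 10 (Erbb4 and 4 neuregulins), 0 of 5 tested genes were called in either direction by edgeR or DESeq2 and 1 had an unadjusted p under 0.05, lower in Cationorm (3.57% of all genes), with a median log2 fold change of -0.00299. Nrg3, a neuregulin that binds Erbb4, had 0.349, 0.186 and 0.479 CPM in Cationorm 1 to 3, against 1.001, 0.866 and 0.456 CPM in Control 1 to 3. Cationorm 3 lay above Control 3, so the groups overlapped, and the adjusted p was 0.550 (edgeR). Nrg4 had a log2 fold change of 0.30 ± 0.34 (SE, n = 3 each; edgeR adjusted p = 0.754). Erbb4, added here for its place in the family, was near the bottom of the family, at 1.65 to 2.05 CPM in Cationorm and 1.70 to 2.53 CPM in Control. Nrg1, a ligand of Erbb3 added for the same reason, was at 48.8 to 56.3 CPM in Cationorm and 44.9 to 59.1 CPM in Control.

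The list of ligand shedding and trafficking holds proteases, rhomboids without protease activity and Timp3, an inhibitor of Adam17. It had 0 of 11 genes called by edgeR or DESeq2, with 3 at an unadjusted p under 0.05, all higher in Cationorm (5.16% of all genes were higher at that p), and a median log2 fold change of 0.08. Rhbdf2, an inactive rhomboid that brings the protease Adam17 to the cell surface, had 52.9, 55.1 and 52.6 CPM in Cationorm 1 to 3, against 47.4, 46.6 and 46.9 CPM in Control 1 to 3. The groups did not overlap, and the log2 fold change was 0.19 ± 0.06 (SE, n = 3 each, edgeR adjusted p = 0.550). The Rhbdf2 Control values (mean 47.0 ± 0.391 CPM, SD) come from 1895, 1616 and 1648 counts. Counting error alone is already 1.64% at 3702 counts, so their closeness does not measure the spread between libraries. Rhbdl2, a membrane protease of the rhomboid family, had 17.1, 18.2 and 17.3 CPM in Cationorm 1 to 3, against 14.8, 14.8 and 14.8 CPM in Control 1 to 3, again without overlap and with the same adjusted p. Those Control values come from 592, 512 and 518 counts. Counting error alone is 4.15% at 580 counts, so their closeness does not measure the spread between libraries. Timp3, added here as the inhibitor in the list, had 175, 140 and 136 CPM in Cationorm 1 to 3, against 101, 78.0 and 146 CPM in Control 1 to 3, and its groups overlapped (log2 fold change 0.47 ± 0.22 SE, n = 3 each; edgeR adjusted p = 0.550). The groups did not overlap in 4 of the 11 genes, against 14.8% of all genes.

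Feedback inhibitors and genes of receptor degradation were called in 0 of 20 cases by edgeR or DESeq2, with 1 at an unadjusted p under 0.05, lower in Cationorm (3.57% of all genes), and a median log2 fold change of 0.02. That gene was Spred3, of a family that restrains RAS to ERK signalling, with 4.06, 3.95 and 6.52 CPM in Cationorm 1 to 3, against 9.15, 6.95 and 8.03 CPM in Control 1 to 3. The groups did not overlap, and the log2 fold change was -0.73 ± 0.23 (SE, n = 3 each; edgeR adjusted p = 0.550). Lrig3, a relative of the receptor inhibitor Lrig1, had a log2 fold change of 0.14 ± 0.07 with the same, tied adjusted p and an unadjusted p of 0.0823 (edgeR).

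Adaptors and members of the RAS to ERK, PI3K and STAT pathways were called in 0 of 27 cases by edgeR or DESeq2, with 2 at an unadjusted p under 0.05, both higher in Cationorm (5.16% of all genes), and a median log2 fold change of 0.04. Gab1, a docking protein downstream of Egfr, had 90.3, 90.1 and 84.9 CPM in Cationorm 1 to 3, against 74.7, 76.5 and 83.7 CPM in Control 1 to 3. Stat3, a transcription factor activated by growth factors and cytokines, had 208, 199 and 196 CPM in Cationorm 1 to 3, against 171, 168 and 193 CPM in Control 1 to 3. In both genes the groups did not overlap and Control 3 came nearest to the Cationorm libraries, and the adjusted p was 0.550 (edgeR).

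Target genes of ERK signalling were called in 0 of 14 tested cases by edgeR or DESeq2, with 1 at an unadjusted p under 0.05, higher in Cationorm (5.16% of all genes), and a median log2 fold change of 0.10. The 1 untested member (Fosl1) fell to the low-count filter. Zfp36, which encodes an mRNA decay factor, had 168, 171 and 144 CPM in Cationorm 1 to 3, against 129, 144 and 139 CPM in Control 1 to 3. Its log2 fold change was 0.23 ± 0.08 (SE, n = 3 each; edgeR adjusted p = 0.550). Fos, a subunit of AP-1, had a log2 fold change of 0.36 ± 0.16 with the same adjusted p, and its groups overlapped because Cationorm 3 lay below Control 2 and Control 3.

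Likeness to the receptors was measured as the root mean square difference of mean-centred log2 CPM over the 6 libraries. The 11533 genes compared were tested genes with a mean of at least 5 CPM, without predicted gene models and the members. Nearest to Egfr were Smc3, a cohesin subunit (0.0167), Arl14ep (0.0169) and Cybc1 (0.0181), where the median over all compared genes was 0.125. Nearest to Erbb2 were Bcl2l13 (0.0115), Caskin2 (0.0119) and Pon2 (0.0132), against a median of 0.133. Nearest to Erbb3 were Myof, the membrane repair protein myoferlin (0.0134), Ctdspl (0.0156) and Itga3, an integrin subunit of epithelial adhesion (0.0182), against a median of 0.172. Itga3 had 280, 278 and 264 CPM in Cationorm 1 to 3, against 233, 217 and 258 CPM in Control 1 to 3, the same order of libraries as Erbb3. All these genes were picked from 11533 for closeness over the same 6 libraries, so such likeness follows from the selection.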

How the data were processed

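CPM is counts scaled to library size. The authors deposited 1 table of raw read counts per gene symbol, with 1 count column per library, per the file headers. RNA was TRIzol-extracted, enriched for mRNA and made into TruSeq libraries, per the labels' protocols. The submitters' processing notes list GRCm39, mm39 and DESeq2 without a role. The sources used here do not give the aligner, the counter, the annotation or the strand setting. Columns were matched to samples by library name. Counts were TMM-normalised, filtered with filterByExpr and tested with edgeR 4.0.16 (glmQLFit, glmQLFTest; R 4.3.3) without covariates, adjusted by Benjamini-Hochberg over all 18804 genes at 0.05. SEs were derived from the fold change and F statistic. A count of 0 would allow up to 0.0923 CPM in the shallowest library (3 counts, counting error only). Per-length levels used exon unions of GENCODE M21 (GRCm38), not the authors' annotation. Alternatives were other scalings and filters, DESeq2 1.42.0, limma-voom (limma 3.58.1), a replicate block, each library left out and other-tissue markers left out. The procedure was tested on simulated counts. The members and lists were chosen with earlier results of these data known. Named genes by rule were all members, the 2 genes of smallest p per pathway list, and the 3 genes nearest to each receptor. Egr1 and the ERK targets set beside it, Timp3, Erbb4, Nrg1 and the stroma markers were named outside that rule.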

Additional observations from a re-analysis of the deposited data

How the results depend on the processing

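Every member had an adjusted p above 0.05 under all 14 alternatives, and the count of called members and of called pathway genes was 0 in each. Over those alternatives the log2 fold change ran from 0.41 to 0.73 for Hbegf (adjusted p 0.106 to 0.862) and from 0.15 to 0.29 for Erbb3 (adjusted p 0.240 to 0.862). Leaving out 1 library at a time gave -0.161 to 0.0806 for Egf and -0.152 to 0.00984 for Btc, the members whose sign changed. Over all genes edgeR called 0, with 1641 at an unadjusted p under 0.05. DESeq2 called 55 (48 higher and 7 lower in Cationorm) and limma-voom called 0. Leaving out 1 library gave 0 to 350 calls, and their main direction differed. Without Cationorm 3 there were 350 (15 higher and 335 lower), without Control 3 there were 8 and without Control 2 there was 1, all higher in these last fits. With the replicate number as a block 0 genes and 0 members were called, and 879 genes had an unadjusted p under 0.05. Same-numbered libraries did not deviate together (correlations of -0.20, -0.34 and -0.21), and no library correlated best with its own number. With the longest coding transcript as length, the median levels of Egfr, Hbegf, Tgfa, Btc and Egf moved to 23.9, 66.8, 7.02, 6.18 and 1.11 CPM per kb. With the other-tissue markers left out before normalisation the values of the members barely moved, which does not bear on reads of those tissues in the members. With 3 libraries per group a p that misses the threshold does not show equal levels.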
